A study of Homo sapiens with 12 samples.

Results

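The genes described here are the receptors, coreceptors and ligands of the vascular endothelial growth factor (VEGF) system together with genes that mark lymphatic endothelium. They were taken by symbol from the deposited expression tables: the receptors *FLT1*, *KDR* and *FLT4*, the coreceptors *NRP1* and *NRP2*, the ligands *VEGFA* and *VEGFC*, and the lymphatic genes *PROX1*, *LYVE1* and *FOXC2*. All 10 were found among the 56266 genes of the tables. Of these 10, 9 passed the filter on low values (2 or more libraries at a TPM of 1 or higher), as did 21543 genes in all, and *VEGFC* did not.

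RNA-Seq was analyzed in 10 libraries, 2 in each of 5 groups. The groups were undifferentiated H1-GATA2-/- cells (GATA2-/- hESCs), hemogenic endothelium from wild-type H1 (WT HEs) and from H1-GATA2-/- (GATA2-/- HEs), and hematopoietic progenitors of the same lines (WT HPCs and GATA2-/- HPCs). H1 is an established line of human embryonic stem cells, and H1-GATA2-/- was made from it with a TALEN pair and a PGK-driven neomycin cassette placed at exon 3 of *GATA2*, so the genotype stands for 1 targeted line. For differentiation the lines were grown on OP9, a mouse stromal line, and cells were taken with a CD34+CD31+CD43- gate on day 8 for HEs and a CD34+CD43+ gate on day 9 for HPCs. Stage, sorting gate and day of culture therefore cannot be told apart. WT hESC libraries were not analysed here.

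VEGF ligands are secreted dimers that bind receptor tyrosine kinases on endothelial cells. *KDR* (VEGFR2) carries most of the growth and survival signal, *FLT1* (VEGFR1) binds VEGFA tightly and is also made as a soluble decoy, and *FLT4* (VEGFR3) binds VEGFC and VEGFD and drives lymphatic growth in later life while also being found on early blood vessel endothelium. The neuropilins hold ligand beside these kinases and also bind class 3 semaphorins. *PROX1* is the transcription factor that sets lymphatic identity.

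Values are TPM, a transcript abundance scaled for length and to a common total in each library, so levels can be compared between genes. A TPM of 1 or more was seen for 16004 to 17335 genes in each library, and the depth behind a value is unknown. Differences are log2 fold changes of TPM + 1 from limma over all 10 libraries, with 95% intervals and p-values adjusted over the 21543 genes. The labels do not say that replicates came from separate cultures, so these p-values measure only the spread between these libraries. The targeted gene had TPM values of 106.8 and 78.0 in WT HEs, 110.9 and 94.1 in GATA2-/- HEs, 290.1 and 204.2 in WT HPCs, 112.5 and 83.8 in GATA2-/- HPCs and 2.05 and 5.54 in GATA2-/- hESCs. A transcript of the disrupted locus could be counted in these values, so they do not check the labels, and the genotypes below are those of the labels. The endothelial and blood labels were checked against marker lists. From HEs to HPCs all 14 endothelial markers fell in both genotypes, where 6.59% of all tested genes fell in WT and 7.24% in GATA2-/- cells. In both genotypes 10 of 12 blood markers rose, where 3.32% of all tested genes rose in WT and 5.5% in GATA2-/- cells. *CDH5* (VE-cadherin), an endothelial marker that was not part of the gates, had a TPM of 514 to 614 in HEs and 53.9 to 137 in HPCs. *SPN* (CD43), whose protein the gates select on, had 1.76 to 8.81 in HEs and 98 to 108 in HPCs, so its difference follows the sort. Of 8 stromal markers 3 fell from HEs to HPCs in each genotype, and all 8 pluripotency markers fell from GATA2-/- hESCs to HEs and to HPCs, where 16.1% and 16.4% of all tested genes fell.

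Before the values, the promoter stretches of 3 genes that fell together from HEs to HPCs are shown, since *GATA2* encodes a GATA-motif factor and ETS-family factors are regulators of endothelial genes. RefSeq (GRCh38.p14) had an entry for 4 of the 10 genes, *FLT1*, *KDR*, *NRP2* and *VEGFC*. *FLT4*, *NRP1*, *VEGFA*, *PROX1*, *LYVE1* and *FOXC2* were not searched. The 250 bases before the start of transcription were searched on both strands. The letters of the GATA family were AGATAA, or alternatively TGATAA. For the ETS family they were AGGAAG, or alternatively CCGGAA. Capitals mark a match, written 5′ to 3′ on the strand of the gene. The stretches are chr13:28495129-28495378 on the minus strand for *FLT1*, chr4:55125596-55125845 on the minus strand for *KDR* and chr2:205682251-205682500 on the plus strand for *NRP2*.
FLT1: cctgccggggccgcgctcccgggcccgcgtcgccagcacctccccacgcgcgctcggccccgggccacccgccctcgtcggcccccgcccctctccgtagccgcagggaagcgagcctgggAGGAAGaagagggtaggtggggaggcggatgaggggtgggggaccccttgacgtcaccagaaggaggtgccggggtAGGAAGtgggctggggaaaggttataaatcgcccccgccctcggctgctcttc
KDR: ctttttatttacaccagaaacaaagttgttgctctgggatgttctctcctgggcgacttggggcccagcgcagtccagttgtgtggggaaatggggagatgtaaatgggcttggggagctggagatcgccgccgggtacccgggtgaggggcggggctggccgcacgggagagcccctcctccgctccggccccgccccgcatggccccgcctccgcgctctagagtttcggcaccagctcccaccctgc
NRP2: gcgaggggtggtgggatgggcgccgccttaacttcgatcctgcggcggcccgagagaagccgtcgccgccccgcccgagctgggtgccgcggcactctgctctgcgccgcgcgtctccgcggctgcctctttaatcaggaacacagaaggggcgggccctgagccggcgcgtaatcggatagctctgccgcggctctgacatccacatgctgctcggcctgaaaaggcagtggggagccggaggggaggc

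*FLT1* held AGGAAG at 129 and at 53 bases before the start, on the strand of the gene, and the matches did not overlap. None of the 4 motifs was found in *KDR*, *NRP2* or *VEGFC*, and no GATA letters were found in *FLT1*. Of 35116 promoter stretches of the same length, 28.7% held AGGAAG, 14.5% CCGGAA, 9.17% AGATAA and 6.66% TGATAA. The stretches were rich in G and C, 73.2% in *FLT1*, 65.2% in *KDR*, 70.0% in *NRP2* and 74.0% in *VEGFC*, where the median over all promoters was 58%. These are matches of letters in a short window and do not bear on binding.

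The first question was how the VEGF system differs between the endothelial stage and the blood progenitors that follow it. All 3 receptors, both neuropilins and *FOXC2* fell from HEs to HPCs in both genotypes. In mean TPM the fall of the receptors and neuropilins lay between 2.998-fold (*FLT1* in GATA2-/- cells) and 14.5-fold (*FLT4* in GATA2-/- cells). *VEGFA* did not pass the test. In WT cells 6 of the 9 tested genes fell and none rose, where 6.59% of all tested genes fell. In GATA2-/- cells 6 of 9 fell and none rose, where 7.24% of all tested genes fell. The 6 include *FOXC2*, which passed the filter on low values only through its HE libraries, so its fall adds nothing to these counts. The median log2 fold change over the 9 genes was -2.04 in WT and -2.30 in GATA2-/- cells, beside -0.01 and 0.03 over all tested genes.

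*KDR* (ENSG00000128052, GRCh37 chromosome 4 from 55944648 to 55991762, minus strand) was the highest of the 10 genes in HEs. In the WT HE libraries it had a TPM of 839 and 820.05, followed by 879 and 759 in GATA2-/- HEs, 168 and 83.9 in WT HPCs, 209 and 130.31 in GATA2-/- HPCs and 40.5 and 55.8 in GATA2-/- hESCs. Every HE library lay above every HPC library, and every HPC library lay above both hESC libraries. By mean TPM it ranked 175 from the top of the 56266 genes in WT HEs and 180 in GATA2-/- HEs, and 1047 and 702 in the HPCs. From HEs to HPCs it changed by -2.80 in WT (95% interval -3.55 to -2.04, limma adjusted p = 0.00124) and by -2.30 in GATA2-/- cells (-3.05 to -1.55, adjusted p = 0.00263).

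*FLT4* (ENSG00000037280, chromosome 5 from 180028506 to 180076624, minus strand) had the largest fall of the receptors. In the WT HE libraries it had a TPM of 233 and 235, followed by 385 and 314 in GATA2-/- HEs, 34.1 and 17.8 in WT HPCs, 24.7 and 23.6 in GATA2-/- HPCs and 3.69 and 6.68 in GATA2-/- hESCs. HE libraries did not overlap with HPC libraries, which in turn lay above the hESCs. The change from HEs to HPCs was -3.19 in WT (-3.91 to -2.47, adjusted p = 0.000669) and -3.79 in GATA2-/- cells (-4.51 to -3.07, adjusted p = 0.000314), or 9.01-fold and 14.5-fold in mean TPM.

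*FLT1* (ENSG00000102755, chromosome 13 from 28874483 to 29069282, minus strand), whose gene-level TPM does not separate the membrane form from the soluble decoy, had the smallest fall of the receptors. In the WT HE libraries it had a TPM of 170.49 and 214, followed by 207 and 241 in GATA2-/- HEs, 65.9 and 31.4 in WT HPCs, 92.6 and 57.0 in GATA2-/- HPCs and 26.4 and 26.7 in GATA2-/- hESCs. The stages did not overlap, but the lower WT HPC library was close to the hESCs. The change was -2.04 in WT (-2.82 to -1.27, adjusted p = 0.00642) and -1.61 in GATA2-/- cells (-2.38 to -0.84, adjusted p = 0.0158).

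The neuropilins followed the same order of stages. *NRP2* (ENSG00000118257, chromosome 2 from 206546714 to 206662857, plus strand), the neuropilin that pairs with FLT4, had a TPM of 554 and 474 in WT HEs, 672 and 508 in GATA2-/- HEs, 182 and 96.9 in WT HPCs, 191 and 68.0 in GATA2-/- HPCs and 19.3 and 10.7 in GATA2-/- hESCs. *NRP1* (ENSG00000099250, chromosome 10 from 33466420 to 33625190, minus strand), the partner of KDR, had a TPM of 104 and 110.24 in WT HEs, 105 and 129 in GATA2-/- HEs, 18.7 and 8.64 in WT HPCs, 25.7 and 14.96 in GATA2-/- HPCs and 5.06 and 2.92 in GATA2-/- hESCs. In neither gene did an HE library overlap with an HPC library. *NRP2* thus stood above *NRP1* in all 10 libraries. From HEs to HPCs *NRP1* changed by -2.97 in WT (adjusted p = 0.00189) and -2.51 in GATA2-/- cells (adjusted p = 0.0034), and *NRP2* by -1.94 (adjusted p = 0.038) and -2.35 (adjusted p = 0.0142).

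Fits that leave out 1 library bear on *FLT1* and *NRP2* most. The WT call of *NRP2* was lost without each of the 4 libraries compared in turn (adjusted p from 0.0553 to 0.215), and that of *FLT1* without WT HE replicate 2 (0.0641). In GATA2-/- cells both calls were lost without either HE library or without HPC replicate 2 (0.0656 to 0.107 for *FLT1*, 0.0646 to 0.0949 for *NRP2*). *KDR*, *FLT4*, *NRP1* and *FOXC2* kept both calls in each of these fits. The WT call of *NRP2* was also lost with a pseudocount of 0.1 (limma adjusted p = 0.0512), with quantile normalization (0.0504), with eBayes without trend (0.0694) and with no filter on low values (0.261). With no filter *FLT1* lost its call in WT (0.0741) and in GATA2-/- cells (0.125), and *NRP2* also in GATA2-/- cells (0.132). With only the 4 libraries of a comparison in the fit, little information on the spread is left. By limma 0 of the 9 genes then passed in WT or in GATA2-/- cells, as was so for 0 of all 21543 tested genes. At an unadjusted p under 0.05, 6 of the 9 passed in WT and 7 in GATA2-/- cells, beside 4423 and 5040 of all tested genes. The adjusted p lay between 0.0827 and 0.148 in WT for the 5 receptor and neuropilin genes and between 0.0576 and 0.158 in GATA2-/- cells, with the log2 fold changes as before.

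The column names of replicate 2 in all 4 HE and HPC groups carry a shared tag that those of replicate 1 lack, and each hESC library has a tag of its own. What these tags stand for is not given in the sources used here. HPC replicate 1 was above HPC replicate 2 for each of the 5 receptor and neuropilin genes in both genotypes, by 1.88-fold to 2.17-fold in WT and by 1.05-fold to 2.81-fold in GATA2-/- cells. *CDH5* moved the same way, with a TPM of 110.45 against 53.9 in WT HPCs and 137 against 85.9 in GATA2-/- HPCs. The endothelial marker list did not move as a whole. Its summed TPM was 1360 against 1046 in WT HPCs and 1305 against 1214 in GATA2-/- HPCs. Some of its markers went the other way, such as *VWF* in WT (4.06 against 5.02) and *TIE1* in GATA2-/- HPCs (203 against 224). The summed TPM of the 12 blood markers moved the other way, 3784 against 7238 in WT and 3519.77 against 7426 in GATA2-/- HPCs. Within replicate 1 the fall of *KDR* from HEs to HPCs was -2.32 in WT and -2.07 in GATA2-/- cells, and within replicate 2 it was -3.27 and -2.53. The part of residual endothelial cells in the HPC values was not tested, and in bulk samples fewer cells of a type and less RNA per cell cannot be told apart.

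**Figure D1:**
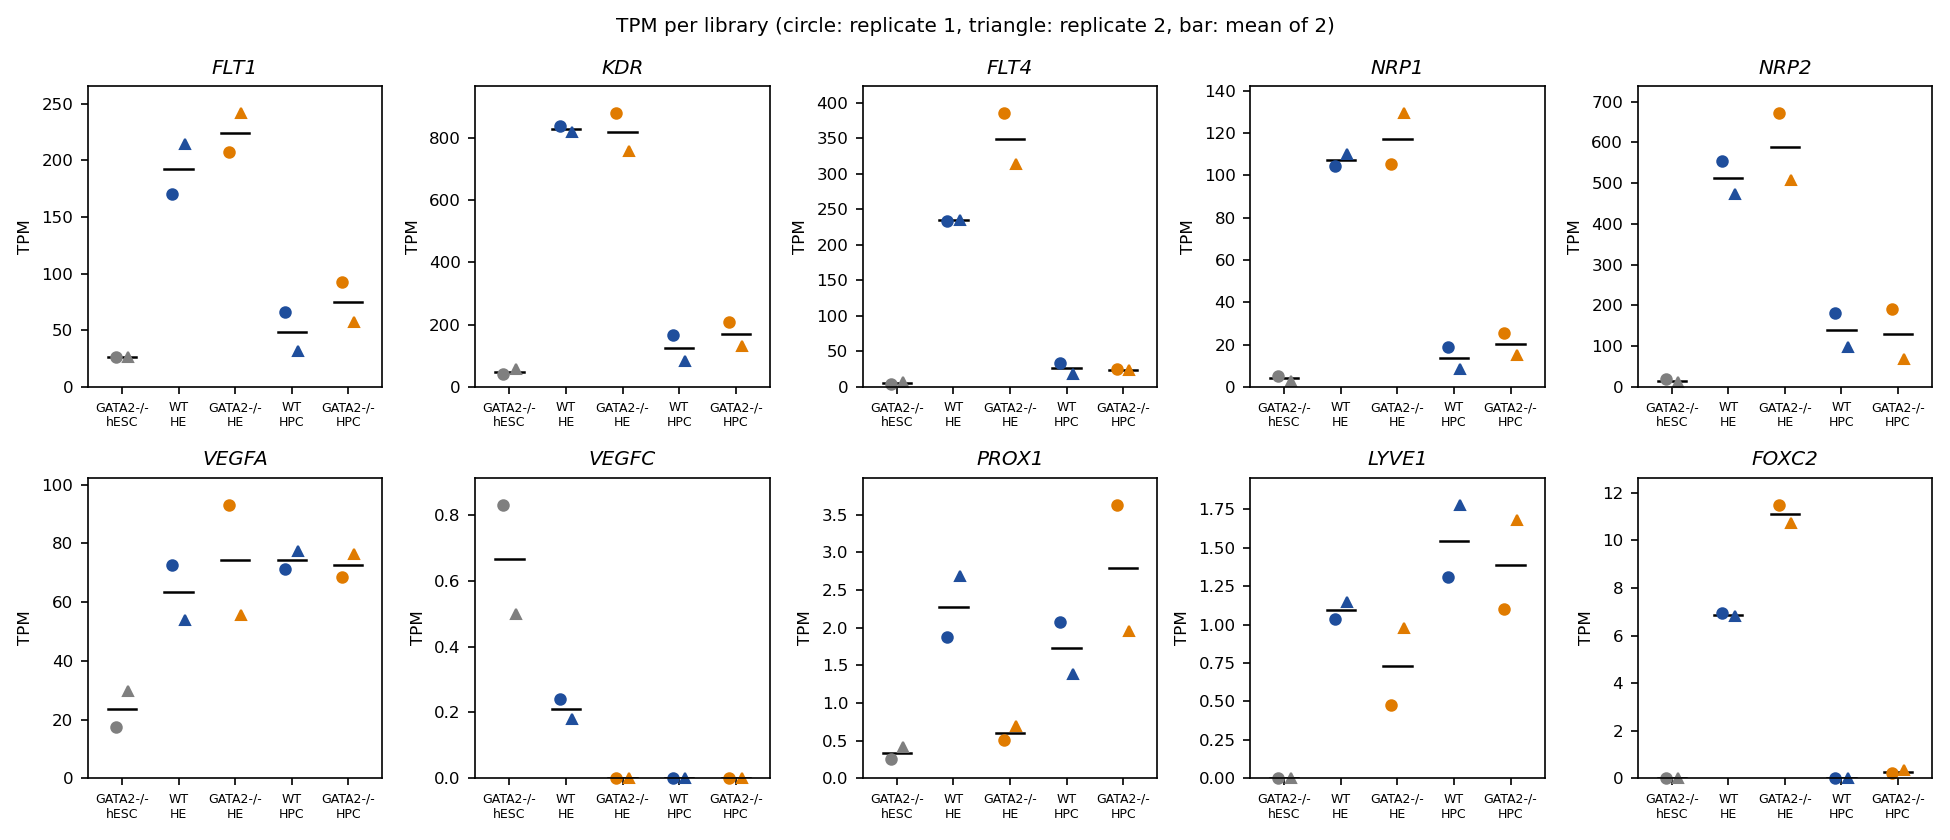
TPM (linear axis from 0, scaled per gene) of the 10 genes in every library, with circles for replicate 1, triangles for replicate 2 and bars for the mean of 2. The receptors and neuropilins are highest in the 4 HE libraries (KDR 759 to 879), *VEGFA* overlaps between HEs and HPCs, and *PROX1*, *LYVE1* and *VEGFC* stay below a TPM of 4.

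*VEGFA* (ENSG00000112715, chromosome 6 from 43737921 to 43754224, plus strand), the ligand of both KDR and FLT1, showed another pattern. In the WT HE libraries it had a TPM of 72.6 and 54.0, followed by 93.1 and 55.8 in GATA2-/- HEs, 71.2 and 77.5 in WT HPCs, 68.7 and 76.3 in GATA2-/- HPCs and 17.4 and 29.6 in GATA2-/- hESCs. HE and HPC libraries overlapped in both genotypes and all 8 lay above the hESCs. The difference from HEs to HPCs was 0.24 in WT (-0.45 to 0.93, adjusted p = 0.714) and 0.01 in GATA2-/- cells (-0.68 to 0.70, adjusted p = 1), intervals that allow a difference in either direction.

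*VEGFC* (ENSG00000150630, chromosome 4 from 177604689 to 177714076, minus strand), the main ligand of FLT4, was close to 0 throughout. It was listed at 0.83 and 0.5 in GATA2-/- hESCs and at 0.24 and 0.18 in WT HEs. In the GATA2-/- HEs and in all 4 HPC libraries it was listed at 0. It did not pass the filter on low values, and a value listed at 0 in tables without counts does not show absence. *VEGFD* (listed under its older symbol *FIGF*), the other ligand of FLT4, was at 0 in all but 1 library, a GATA2-/- hESC library at 0.17. Of the other ligands, which bind FLT1, *VEGFB* had a TPM of 42.0 to 71.3 in HEs and 44.5 to 61.5 in HPCs and *PGF* 4.37 to 8.46 and 2.17 to 6, and neither passed between HEs and HPCs in either genotype.

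Of the lymphatic genes, *FOXC2* (ENSG00000176692, chromosome 16 from 86600435 to 86603334, plus strand), a forkhead factor of lymphatic valves, was seen in HEs. It reached a TPM of 6.94 and 6.8 in WT HEs and of 11.5 and 10.7 in GATA2-/- HEs, 0.21 and 0.33 in GATA2-/- HPCs, and it was listed at 0 in WT HPCs and in GATA2-/- hESCs. The groups of the 2 stages did not overlap. *FOXC2* passed the filter on low values only through its HE libraries, so its tests against HPCs and hESCs use the values that admitted it. The change from HEs to HPCs was -2.98 in WT (adjusted p = 0.000855) and -3.25 in GATA2-/- cells (adjusted p = 0.000511) on the TPM + 1 scale, which understates a change to values near 0.

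*PROX1* (ENSG00000117707, chromosome 1 from 214156524 to 214214853, plus strand) was low everywhere, with TPM values of 1.87 and 2.68 in WT HEs, 0.51 and 0.7 in GATA2-/- HEs, 2.07 and 1.38 in WT HPCs, 3.63 and 1.95 in GATA2-/- HPCs and 0.26 and 0.41 in GATA2-/- hESCs. *LYVE1* (ENSG00000133800, chromosome 11 from 10578513 to 10633236, minus strand), a hyaluronan receptor of lymphatic vessels and of some macrophages, had a TPM of 1.04 and 1.15 in WT HEs, 0.48 and 0.98 in GATA2-/- HEs, 1.31 and 1.78 in WT HPCs and 1.1 and 1.68 in GATA2-/- HPCs and was listed at 0 in GATA2-/- hESCs. Between HEs and HPCs neither passed the test in either genotype. The summed TPM of 7 macrophage markers was 38.4 to 66.8 in HEs and 187 to 457 in HPCs. Most of it in HPCs was *AIF1* (104.51 to 344, against 13.6 to 27.0 in HEs). Of the 6 tested, 3 rose in each genotype, where 3.32% of all tested genes rose in WT and 5.5% in GATA2-/- cells. *MRC1* went the other way (5.48 to 13.3 in HEs, 0 to 3.76 in HPCs), and *CD14* was listed at 0 in the HPC libraries. The part of these markers in the value of *LYVE1* was not tested. Of *PROX1* and *LYVE1*, the smallest adjusted p between HEs and HPCs was that of *PROX1* in GATA2-/- cells, at 1.21 (0.35 to 2.07, adjusted p = 0.0737). In GATA2-/- cells both HPC libraries of *PROX1* lay above both HE libraries, and *PROX1* passed in the fit of eBayes without trend (limma adjusted p = 0.0373). The HPC libraries of *LYVE1* also lay above the HE libraries, in both genotypes. The share of all tested genes without overlap between these stages was not counted. *PROX1* also shares 163 exonic bases with the antisense gene *PROX1-AS1*, and the counting is not stated to use strand, so reads of the pair may not be told apart. *FOXC2* shares 231 such bases with *FOXC2-AS1*, *NRP1* 561 and *NRP2* 147 with antisense genes of low TPM, and *VEGFA* 188 with one that has no row.

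**Figure D2:**
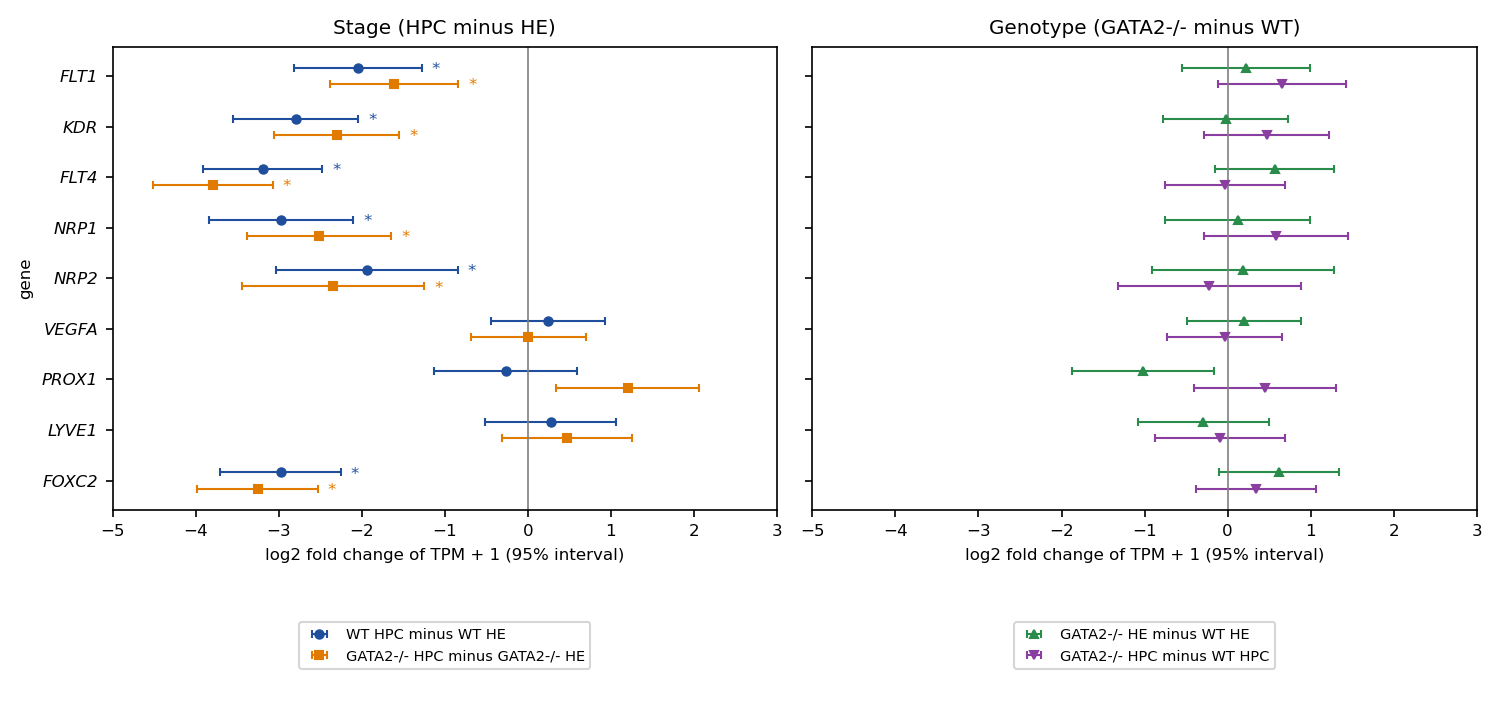
log2 fold changes of TPM + 1 (x axis, points with 95% intervals) for the 9 tested genes, from HEs to HPCs in each genotype (left) and from WT to GATA2-/- at each stage (right), where a star marks an adjusted p under the threshold. The 6 genes with stars fell from HEs to HPCs in both genotypes, and no gene has a star for genotype.

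In these libraries the shares of *FLT1* and *FLT4* among the 3 receptors did not overlap between HEs and HPCs, while those of *KDR* did. As a share of the summed TPM of the 3 receptors, *KDR* made up 57.8% to 67.5% in HEs and 61.8% to 64.0% in HPCs. *FLT4* made up 18.5% to 26.2% in HEs and 7.57% to 13.4% in HPCs. *FLT1* made up 13.7% to 18.4% in HEs and 23.6% to 28.4% in HPCs, so that *FLT4* was above *FLT1* in all 4 HE libraries and below it in all 4 HPC libraries. In hESCs *FLT1* made up 37.4% and 29.9% and *FLT4* 5.23% and 7.49%.

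The same was seen relative to an endothelial gene within each library, a comparison chosen after these values were seen. It uses the same receptor TPM values as the shares and is not independent of them. The TPM ratio of *KDR* to *CDH5* was 1.25 to 1.63 in the 4 HE libraries and 1.52 to 1.56 in the 4 HPC libraries. That of *FLT1* was 0.332 to 0.398 in HEs and 0.583 to 0.675 in HPCs, and that of *FLT4* was 0.437 to 0.627 in HEs and 0.18 to 0.331 in HPCs. On the log2 scale the ratio of *FLT1* was higher by 0.78 in HPCs, the ratio of *FLT4* lower (HPC minus HE -0.92), and the difference of *KDR* was 0.07. Each of the 5 receptor and neuropilin genes was compared with *CDH5* and with the mean of the 14 endothelial markers, 10 exact permutation tests (two-sided, 4 against 4 libraries of both genotypes). These tests shuffled libraries without regard to genotype, so they treat the 4 of a stage as alike. The ratio of *FLT4* to *CDH5* in HEs was 0.454 and 0.437 in WT and 0.627 and 0.516 in GATA2-/- cells. In HPCs it was 0.309 and 0.331 in WT and 0.18 and 0.275 in GATA2-/- cells. *FLT1* and *FLT4* gave p = 0.0286 with either reference, the smallest this design can give, and an adjusted p over the 10 exact tests of 0.0714, which did not pass. Their ratios did not overlap between stages, which alone fixes this p, so the test adds nothing to the ranges. *KDR* gave exact permutation p = 0.514 and 0.914, and *NRP1* and *NRP2* between 0.0857 and 0.371.

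**Figure D3:**
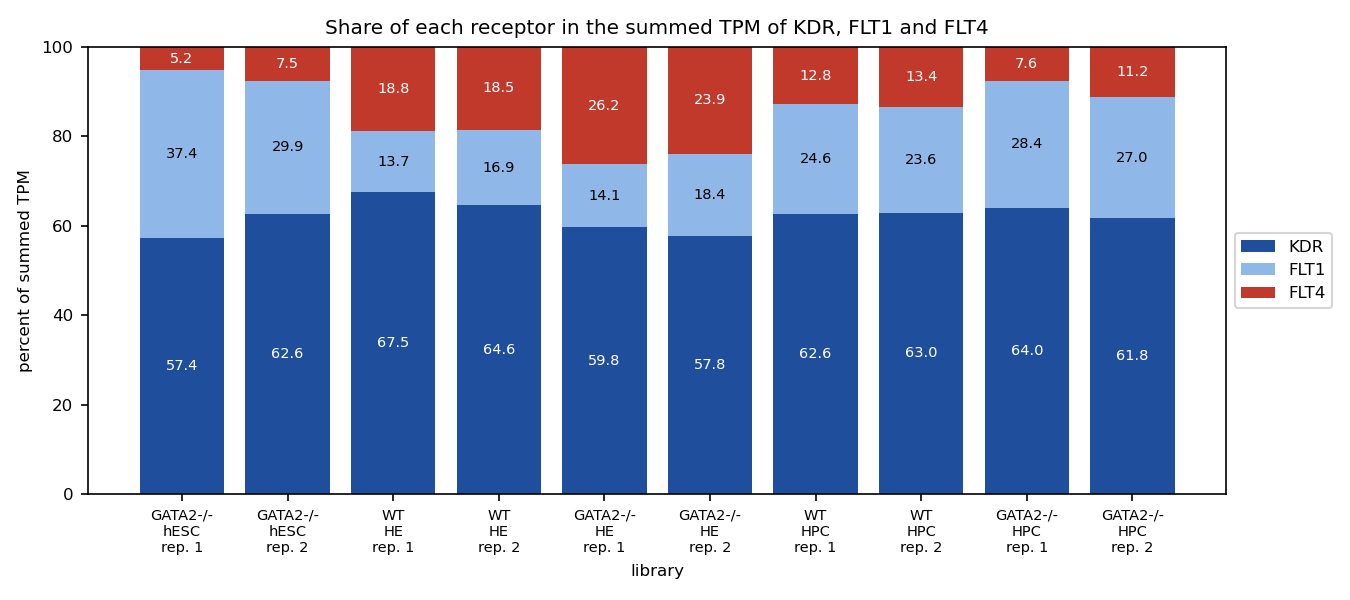
Share (percent, y axis) of *KDR*, *FLT1* and *FLT4* in their summed TPM in each of the 10 libraries (x axis). *KDR* is the largest share everywhere, *FLT4* exceeds *FLT1* in the 4 HE libraries, and *FLT1* exceeds *FLT4* in the hESC and HPC libraries.

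The second question was whether loss of *GATA2* changes these genes. In HEs, *FLT4* and *FOXC2* were higher and *PROX1* and *LYVE1* lower in both GATA2-/- libraries than in both WT libraries, but none of the 9 genes passed the test, where 0.0186% of all tested genes did (4 genes, by limma). At an unadjusted p under 0.05, 1 of the 9 (*PROX1*) and 4.85% of all tested genes passed. A lack of overlap, seen for 4 of the 9 genes, was seen for 30.3% of all tested genes.

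*FLT4* was 1.49-fold higher in mean TPM in GATA2-/- HEs, 349 ± 50.4 against 234 ± 1.22 (SD, n = 2), a log2 difference of 0.57 (-0.15 to 1.29). *FOXC2* was 1.62-fold higher, with a log2 difference of 0.62 (-0.11 to 1.35). *PROX1* was 3.76-fold lower, at 0.605 ± 0.134 against 2.27 ± 0.573 (SD, n = 2), a log2 difference of -1.02 (-1.88 to -0.16, limma unadjusted p = 0.0251, adjusted p = 0.934). *PROX1-AS1*, which shares exonic bases with it, was at 0 and 1.19 in GATA2-/- HEs and 2.06 and 3.3 in WT HEs. *LYVE1* differed by -0.29 (-1.08 to 0.49). The libraries of *FLT1*, *KDR*, *NRP1*, *NRP2* and *VEGFA* overlapped between genotypes, with log2 differences from -0.02 (*KDR*) to 0.22 (*FLT1*). For *KDR* the interval was -0.77 to 0.73, so these libraries allow a difference in either direction of that size.

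Markers of other cell types moved beside these values in HEs. The summed TPM of the 12 blood markers was 302 and 215 in the WT libraries and 134 and 85.7 in GATA2-/- HEs, with 9 of the 12 lower in both GATA2-/- libraries (0 passed by limma, 7 at an unadjusted p under 0.05). That of the 14 endothelial markers was 4045 and 4570.37 in the WT libraries and 5149 and 4991 in GATA2-/- HEs, with 8 of 14 higher in both GATA2-/- libraries (0 passed by limma, 1 at an unadjusted p under 0.05). The summed TPM of the 7 macrophage markers was 56.4 and 66.8 in the WT libraries and 38.4 and 43.4 in GATA2-/- HEs, without overlap, with 4 of the 6 tested lower in both GATA2-/- libraries (0 passed by limma, 1 at an unadjusted p under 0.05). That of the 8 stromal markers overlapped between genotypes, 793 and 634 against 724 and 500.1, with 4 of 8 lower in both GATA2-/- libraries (0 passed by limma, 1 at an unadjusted p under 0.05). Over all tested genes 30.3% had no overlap between genotypes in HEs, and 4.85% passed at an unadjusted p under 0.05. *PTPRC* was listed at 0 in all 4 HE libraries. The part of these markers in the values of *FLT4*, *FOXC2*, *PROX1* and *LYVE1* was not tested.

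In HPCs none of the 9 genes passed between genotypes, where 0.0603% of all tested genes did (13 genes, by limma). At an unadjusted p under 0.05, 0 of 9 and 8.94% of all tested genes passed. Of the 9, *FOXC2* alone (0.21 and 0.33 against 0 in both WT libraries) had no overlap, where 32.6% of all tested genes had none. The log2 difference was 0.66 for *FLT1* (-0.11 to 1.43, adjusted p = 0.623), 0.58 for *NRP1*, 0.47 for *KDR*, -0.03 for *FLT4* and -0.22 for *NRP2*. Replicates differed by as much: the TPM of *KDR* was 168 and 83.9 in WT HPCs and 209 and 130.31 in GATA2-/- HPCs. The mitochondrial genome took 15.1% and 14.8% of TPM in GATA2-/- HPCs and 8.66% and 9.61% in WT HPCs.

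The difference between the genotype effects of the stages was itself tested. None of the 9 genes passed, as was so for 0% of all tested genes (0 genes, by limma). At an unadjusted p under 0.05, 1 of 9 and 5.95% of all tested genes (1281) passed. The gene was *PROX1*, with a genotype difference of -1.02 in HEs and 0.45 in HPCs and an interaction of 1.47 (0.26 to 2.69, limma unadjusted p = 0.023, adjusted p = 0.755). For *FLT4* the interaction was -0.60 (-1.62 to 0.42) and for *KDR* 0.49 (-0.57 to 1.56).

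The third comparison placed both differentiated stages against undifferentiated GATA2-/- hESCs. In GATA2-/- HEs 7 of the 9 tested genes rose, where 13.9% of all tested genes rose, and in GATA2-/- HPCs 8 of 9 rose, where 14.2% rose. These comparisons share the hESC libraries. The 7 genes that rose in HEs include *FOXC2*, which passed the filter on low values only through HE libraries. In HEs the rises were largest for *FLT4* (5.86, adjusted p = 5.48e-06), *NRP2* (5.25, adjusted p = 8.44e-05) and *NRP1* (4.59, adjusted p = 5.01e-05), followed by *KDR* (4.07, adjusted p = 4.29e-05), *FOXC2* (3.60), *FLT1* (3.03) and *VEGFA* (1.62, adjusted p = 0.00405). In mean TPM *FLT4* was 67.4-fold and *KDR* 17.0-fold higher. *PROX1* and *LYVE1* did not pass. With only the 4 libraries compared *VEGFA* lost its call (limma adjusted p = 0.0806), and with a pseudocount of 0.1 *LYVE1* gained one (adjusted p = 0.0182). With no filter on low values *VEGFC* was tested too and was lower than in hESCs at both stages, with a log2 difference of -0.73 (adjusted p = 0.00693 in HEs and 0.00708 in HPCs) on values under a TPM of 1.

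In GATA2-/- HPCs *NRP2* (2.90), *NRP1* (2.08), *FLT4* (2.07), *KDR* (1.77), *VEGFA* (1.63), *PROX1* (1.47), *FLT1* (1.42) and *LYVE1* (1.25) rose, and *FOXC2* did not pass. Leaving out GATA2-/- hESC replicate 1 left 4 of these 8 calls and leaving out replicate 2 left 5, with *FLT1* and *LYVE1* lost in both. Both calls were also lost with no filter on low values (limma adjusted p = 0.0946 and 0.0829). *FLT1* and *KDR* were well above the filter in undifferentiated cells, at a TPM of 26.4 to 55.8. Pluripotency markers were high there (POU5F1 3332 and 2855) and *CDH5* was at 0 and 0.81.

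Genes known to act with these receptors were described from lists of the pathway. Among 12 neuropilin partners, 4 fell and none rose in WT cells from HEs to HPCs, where 6.59% of all tested genes fell and 3.32% rose. In GATA2-/- cells 4 fell and 1 rose, where 7.24% of all tested genes fell and 5.5% rose. *PLXND1*, a semaphorin receptor of blood vessels that is named here for its level after values were seen, had a TPM of 1110.26 and 1130.44 in WT HEs and 474 and 291 in WT HPCs, a change of -1.59 (adjusted p = 0.00207). The largest falls in WT were *SEMA3F* (-3.32), a semaphorin ligand of NRP2, *PLXNA2* (-2.75) and *SEMA3G* (-2.49). In GATA2-/- cells *SEMA3F* (-3.66), *PLXNA2* (-3.52) and *PLXNA1* (-2.42) fell most and *PLXNA4* rose (2.21, adjusted p = 0.00331). The median of the list was -0.73 in WT and -0.53 in GATA2-/- cells. Between genotypes 0 passed by limma and 0 at an unadjusted p under 0.05, at both stages. Unadjusted, 4.85% of all tested genes passed in HEs and 8.94% in HPCs.

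Of the 14 genes of VEGF receptor signalling, 6 fell and 4 rose in WT, where 6.59% of all tested genes fell and 3.32% rose. In GATA2-/- cells 5 fell and 4 rose, where 7.24% of all tested genes fell and 5.5% rose. Lower were *DLL4* (-3.50 in WT, -3.23 in GATA2-/- cells), the Notch ligand of arterial and tip cells, *NOS3* (-2.15 in WT), the endothelial nitric oxide synthase, and *PTPRB* (-2.09 in WT), an endothelial phosphatase. Higher were *EGR3* (3.31 and 4.57) and *NR4A1* (2.82 and 3.10), immediate early transcription factors that many stimuli induce, and *PRKCB* (0.91 and 1.41), a protein kinase C that blood cells also use. *EGR3* had a TPM of 8.18 and 2.81 in WT HEs and 58.4 and 56.7 in WT HPCs, without overlap. Between genotypes 0 of the 14 passed at either stage by limma, and at an unadjusted p under 0.05, 3 did in HEs and 0 in HPCs. Unadjusted, 4.85% of all tested genes passed in HEs and 8.94% in HPCs.

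Of 6 oxygen-sensing regulators of *VEGFA*, 1 fell in WT cells (*HIF1A*, -0.68, adjusted p = 0.0407) and 1 in GATA2-/- cells (*EGLN1*, -1.21, adjusted p = 0.0355), and none rose. Over all tested genes 6.59% fell and 3.32% rose in WT, and 7.24% fell and 5.5% rose in GATA2-/- cells. *HIF1A*, the oxygen-regulated factor that induces *VEGFA*, had a TPM of 144 and 124 in WT HEs and 94.0 and 74.0 in WT HPCs. By limma 0 of the 6 passed between genotypes, and 0 did at an unadjusted p under 0.05. Unadjusted, 4.85% of all tested genes passed in HEs and 8.94% in HPCs.

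Of 17 other lymphatic genes, 16 were tested, and 6 fell and 2 rose from HEs to HPCs in each genotype. Over all tested genes 6.59% fell and 3.32% rose in WT, and 7.24% fell and 5.5% rose in GATA2-/- cells. *RAMP2*, the coreceptor of the adrenomedullin receptor, fell most in both, with a TPM of 256 and 349 in WT HEs and 5.38 and 3.81 in WT HPCs (-5.76, adjusted p = 0.000129), and -4.90 in GATA2-/- cells. *NR2F2* (-4.26 in WT, -4.02 in GATA2-/- cells), a factor of venous and lymphatic identity that acts with PROX1, and *TBX1* (-3.98 and -4.65) fell next. *RELN* (2.36 and 3.14) and *MMRN1* (1.21 and 2.05) rose. *MMRN1* is also a platelet and megakaryocyte protein. *PDPN* (podoplanin), a lymphatic surface protein that fell most of the list from hESCs to GATA2-/- HEs (-5.81), had a TPM of 1.46 to 5.23 in HEs and 226 and 163 in hESCs. The untested gene was *ANGPT2*. By limma 0 of the 16 passed between genotypes at either stage, and at an unadjusted p under 0.05, 3 did in HEs and 2 in HPCs. Unadjusted, 4.85% of all tested genes passed in HEs and 8.94% in HPCs.

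**Figure D4:**
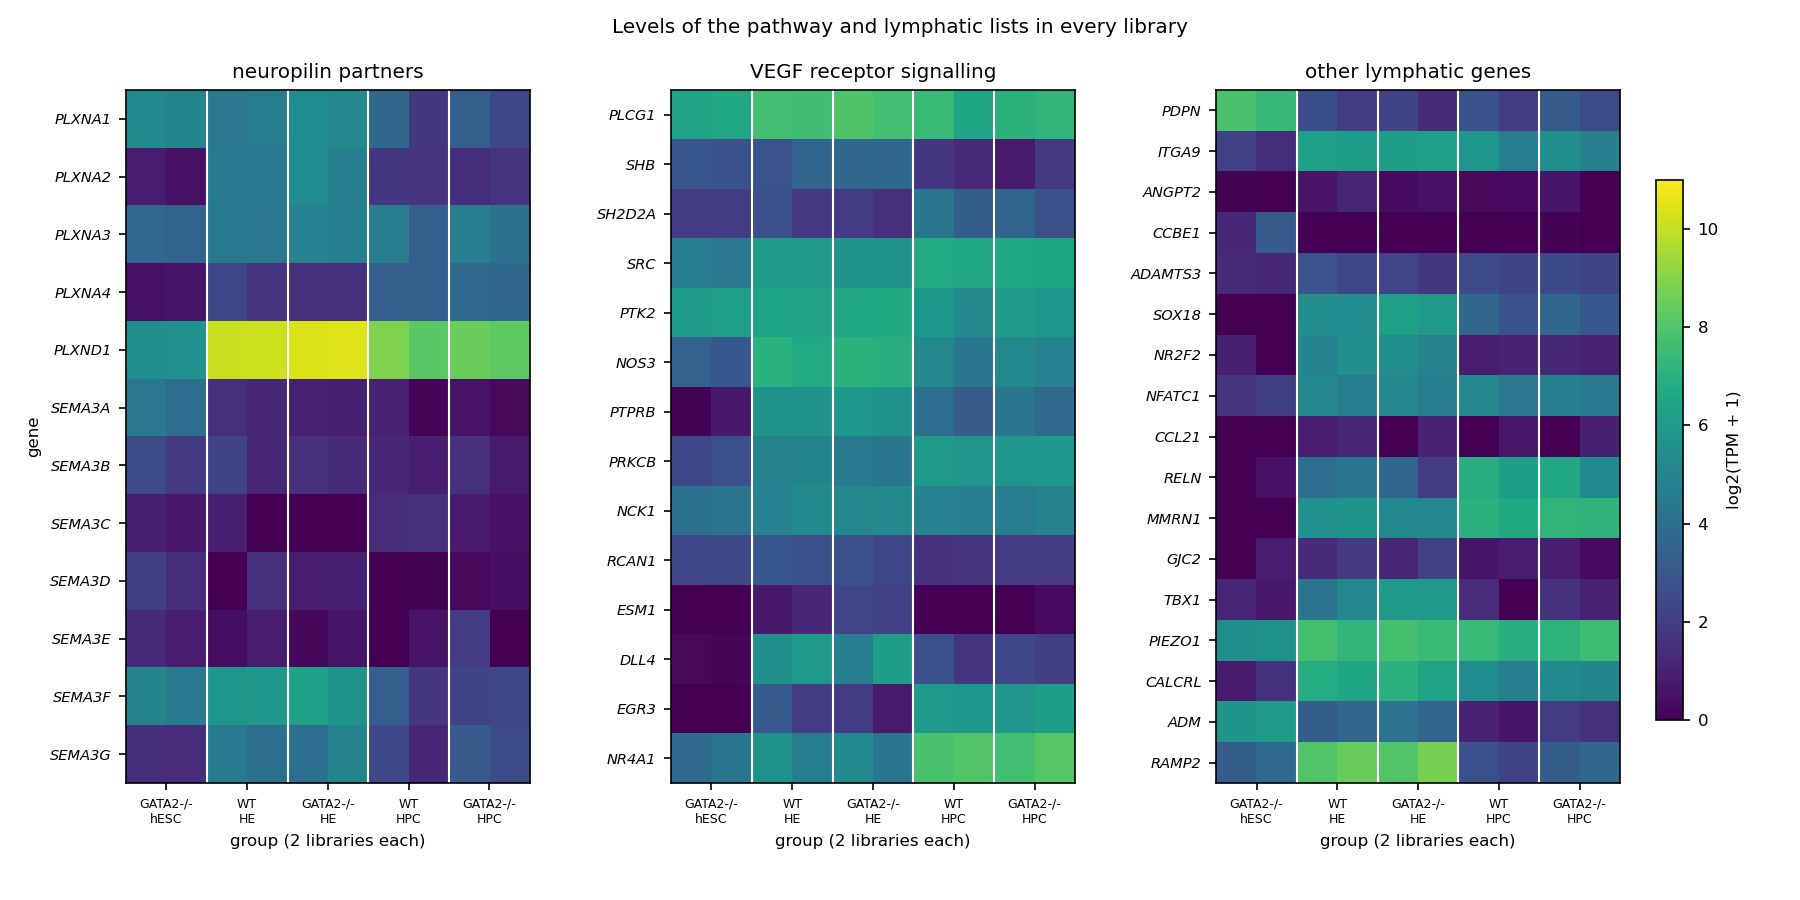
Level as log2(TPM + 1) (colour) of each gene in the lists of neuropilin partners, VEGF receptor signalling and other lymphatic genes (rows) in the 10 libraries (columns, 2 per group). *PLXND1* is brightest in HEs, *RAMP2*, *NR2F2* and *DLL4* are bright in HEs and dark in HPCs, and *EGR3* and *NR4A1* are brighter in HPCs.

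The genes with the pattern most like each receptor were read from Pearson's r of log2(TPM + 1) over the 10 libraries among the 12458 genes that reached a TPM of 10 in any library. The points share groups and libraries, so r mostly follows the high HE level and is given as a description. *KDR* was most like *WASF2* (0.996), *TSPAN18* (0.995), *DOCK6* (0.995), *KIAA1462* (0.995) and *SOST* (0.994). *FLT4* was most like *RASIP1* (0.995), the row labelled hsa-mir-6080 (ENSG00000215769, 0.995), *PIM3* (0.995), *SOST* (0.994) and *MAPK11* (0.993). *FLT1* was most like *TFPI2* (0.991), *BMPR2* (0.989), *DYSF* (0.989), *KIAA1462* (0.989) and *NRP1* (0.989). *NRP1* was thus the nearest of the other 9 genes to *FLT1*.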

How the data were processed

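RNA-Seq libraries (TruSeq) of 5 groups were analysed, 2 per group. The authors trimmed adapters with Trimmomatic and mapped short single-end reads to hg19 with Bowtie. The submitters' processing notes also name RSEM and the builds hg19 and mm10. The deposited values are TPM per gene and library, computed by the authors, and strandedness of the counting is not given in the sources used here. TPM keeps no depth, so precision was judged from replicates alone.

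The limma package 3.58.1 (R 4.3.3) was applied to log2(TPM + 1) of the deposited tables (eBayes with trend, 5 groups in 1 fit, two-sided, Benjamini-Hochberg, threshold 0.05) for 21543 genes, those with 2 or more libraries at a TPM of 1 or higher. The procedure was tested on simulated data, where part of the smaller changes was missed, so a difference that did not pass is not shown to be absent. The share of changed genes required in that test was lowered after its first run fell short, with the model unchanged. The study's own Cuffdiff test needs alignments and was not repeated. Groups and replicate numbers come from the sample labels and days of co-culture from the study's methods. The 10 genes and all lists were chosen with earlier results of these data known. All 10 genes are named, and from each other list up to 3 genes that rose and 3 that fell most per comparison; the genes most like a receptor were the 5 with the highest Pearson's r. Alternatives were a pseudocount of 0.1, no filter, only the libraries compared, replicate number as a block, quantile normalization, rescaling without mitochondrial and globin genes, each replicate left out, and eBayes with no trend. Ratios to *CDH5* and to the endothelial markers and values within a replicate number were added after seeing the data. Positions come from GENCODE 44 lifted to GRCh37 (the same assembly as hg19), promoters from RefSeq (GRCh38.p14), and tables and plots were made in Python 3.11.15. *PECAM1* (CD31) and 2 WT hESC samples were not analysed here.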

Additional observations from a re-analysis of the deposited data

How the results depend on the processing

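With 2 libraries per group and no read depth, precision rests on the spread between replicates, which the intervals show for each gene. The fall of the 6 genes from HEs to HPCs kept its direction under every alternative run. With only the 4 libraries compared in the fit, 0 of the 6 passed in WT and 0 in GATA2-/- cells, and 0 of all tested genes did. *NRP2* in WT lost its call under 4 further settings and *FLT1* and *NRP2* lost theirs in both genotypes with no filter, given with the stage comparison. With only the libraries compared, 4 of 8 passed in GATA2-/- HPCs against hESCs; that fit has fewer libraries to estimate the spread. In the same comparison with hESCs, leaving out 1 library gave between 4 and 7 genes, and 0 genotype calls were gained under any alternative at either stage. A fit that leaves out a library leaves 1 in its group, which is assumed to vary like the other groups. Some genotype differences turned sign, including that of *KDR* in HPCs, which was 0.47 in the main fit. Rescaling without mitochondrial and globin genes gave 0.0641 for *FLT4* and 0.0619 for *VEGFA* in HPCs. Leaving out 1 library gave ranges in HEs of -0.16 to 0.56 for *VEGFA*, -0.0123 to 0.39 for *NRP2*, -0.128 to 0.0842 for *KDR* and -0.0276 to 0.27 for *NRP1*. In HPCs the ranges were -0.48 to 0.42 for *FLT4*, -0.11 to 0.0386 for *VEGFA*, -0.96 to 0.52 for *NRP2*, -0.022 to 0.97 for *KDR* and -0.27 to 0.0807 for *LYVE1*. For *VEGFA* from GATA2-/- HEs to HPCs the range was -0.36 to 0.37. The cause was not tested. Replicate numbers were not shown to pair the samples: the correlation of replicate differences was 0.12 between the HE groups, 0.06 between the HPC groups and -0.01 to 0.03 otherwise. With the replicate block, 6 genes passed from HEs to HPCs in each genotype and 0 between genotypes at either stage, as without it. The limma adjusted p of *NRP2* from HEs to HPCs was lower with the block, 0.00452 in WT and 0.0016 in GATA2-/- cells. That fit treats libraries with the same replicate number as related, which was not shown.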
